A study of Mus musculus with 16 samples.

Results

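Apoe, Gpnmb, Spp1, Cd9, Lgals3, Fabp5 and Clec7a are genes of the lipid-associated macrophage program, which is known in lipid-handling macrophages of fat, arteries and brain and depends there on the receptor Trem2. The 7 genes were chosen by name, and all 7 were found among the 13733 genes listed for knee joint cells of 16 mice. The mice formed 4 groups of 4, WT and Trem2-/- mice that were either uninjured (D0) or taken 7 days (D7) after rupture of the anterior cruciate ligament by a single tibial compression. WT mice were C57BL/6, and Trem2-/- mice (C57BL/6J-Trem2em2Adiuj/J) carry an inactivating allele in every cell of the body, so that the loss was not limited to macrophages. Mice were injured at 10 weeks of age. The study describes cells released enzymatically from the joints of male mice, whereas part of the sample labels names homogenized joints, an age of 16 weeks and diabetic mice. Whether the cells were enriched for leukocytes is not stated, and nothing in the labels says whether a library was pooled from several mice.

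Trem2 is a lipid-sensing receptor on the surface of myeloid cells that signals through the adaptor Tyrobp (DAP12). Macrophages that take up lipid and cell debris turn on genes for lipid transport and storage, lysosomal enzymes and secreted factors, and signaling through Trem2 is known to be needed for much of this change in fat tissue and in microglia. None of the 7 genes is made by macrophages alone. Apoe encodes a lipid-carrying apolipoprotein that is also a ligand of Trem2. Spp1 encodes osteopontin, a secreted ligand of integrins and Cd44 that bone and cartilage cells also make. Clec7a encodes dectin-1, a myeloid receptor for fungal glucans. Gpnmb encodes a transmembrane glycoprotein of lysosome-rich macrophages and of osteoblasts, Cd9 a widely expressed tetraspanin, Lgals3 the lectin galectin-3 and Fabp5 a cytosolic fatty acid-binding protein.

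The 3 members that passed a test with injury were Spp1, Apoe and Clec7a, and the bases just upstream of their transcription starts are shown because Spp1 and Apoe rose and Clec7a fell. The sequences are from RefSeq on GRCm38.p6, the same assembly as the mm10 build of the files. They are 150 bases long, are written 5′ to 3′ on the strand of the gene and end at the base before the start. Capitals mark a match to GAGGAAGT, a sequence that the myeloid factor PU.1 binds.
Spp1, chr5:104434961-104435110, plus strand: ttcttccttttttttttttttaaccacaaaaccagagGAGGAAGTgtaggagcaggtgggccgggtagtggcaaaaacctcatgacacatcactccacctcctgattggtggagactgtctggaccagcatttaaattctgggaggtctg
Apoe, chr7:19699189-19699338, minus strand: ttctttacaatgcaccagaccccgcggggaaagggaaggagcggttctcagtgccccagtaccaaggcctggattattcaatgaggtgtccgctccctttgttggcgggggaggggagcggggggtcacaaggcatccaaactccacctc
Clec7a, chr6:129472780-129472929, minus strand: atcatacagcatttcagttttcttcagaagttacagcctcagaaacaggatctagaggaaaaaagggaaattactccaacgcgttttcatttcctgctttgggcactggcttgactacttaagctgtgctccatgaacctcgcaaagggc
Promoter windows reach from 250 bases before to 50 bases after a start, and 6 of the 7 members had at least 1, Fabp5 being the member with no entry. In them GAGGAAGT, TGANTCA (bound by AP-1) and TCACGTG (bound by Mitf, Tfeb and Tfe3) were searched on both strands. GAGGAAGT was found in 1 of the 2 Spp1 windows, with 105 bases between it and the start, and 3.202% of all 32851 windows of mouse genes hold it. TGANTCA was found in the Gpnmb window just after the RefSeq start, in the stretch ccaggggcaagTGACTCAtgagcacgagt at chr6:49036515-49036543 on the plus strand, and 7.81% of windows hold that motif. The GENCODE start of Gpnmb given next lies after this stretch, since the RefSeq and GENCODE starts of a gene can differ, as they also do for Spp1. TCACGTG, held by 3.77% of windows, was found in no member window.

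In GENCODE M21 on GRCm38, Apoe lies at chr7:19696109-19699188 (minus strand), Gpnmb at chr6:49036546-49070929 (plus), Spp1 at chr5:104435118-104441050 (plus), Cd9 at chr6:125460266-125494791 (minus), Lgals3 at chr14:47367751-47386160 (plus), Fabp5 at chr3:10012548-10016607 (plus) and Clec7a at chr6:129461591-129472779 (minus). Of the 75-base stretches of the Fabp5 coding transcripts, 12.05% also occur in the processed pseudogene Gm6166 and 5.48% in Gm14328, so the Fabp5 values are uncertain. Spp1 overlaps Gm42793 on the same strand, with 8.55% of its stretches shared. Cd9 overlaps the noncoding gene Gm26728 on the opposite strand, and whether reads were counted by strand is not stated. Gm6166, Gm14328 and Gm42793 are not among the genes of the table, and Gm26728 was not looked up.

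Each mouse had between 11567073 and 32867818 reads on genes of the table (median 16399898). Values are TMM-normalized CPM, reads brought to a common library size, and 3 reads correspond to between 0.101 and 0.250 CPM, a limit that covers counting error only. Every member was far above it in every mouse, the lowest member value being 8.91 CPM for Fabp5, and all 7 passed the filter of at least 1 CPM in at least 4 mice, as 13173 genes did. Marker genes of 14 cell types were detected at more than 0 in every mouse, and those of fat cells were the lowest, at 0.772 to 7.34 CPM summed over 3 genes. Trem2 was at 2.51, 4.88, 5.26 and 5.61 CPM in the WT D0 mice and at 15.1, 22.5, 18.9 and 10.7 CPM in the WT D7 mice. In Trem2-/- mice it was at 0.948 to 2.68 CPM at D0 and at 3.42 to 4.84 CPM at D7, lower than in every WT D7 mouse but not absent. Relative to WT its log2 fold change was -1.72 at D7 (limma adjusted p = 0.0503, exact permutation p = 0.0286).

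Compared per kilobase of exon, which allows levels of different genes to be set side by side, Cd9 was the most abundant member at WT D0 with 583 ± 112 CPM per kb (SD, n = 4), followed by Spp1 with 382 ± 137. Lgals3 (176 ± 30.1), Clec7a (150.1 ± 36.1) and Apoe (130.4 ± 29.6) came next, and the ranges of neighbours among these 3 overlapped. Fabp5 (16.8 ± 4.82) and Gpnmb (8.44 ± 3.43) lay far below, below every mouse's Apoe. At WT D7 Spp1 came first with 863 ± 289 CPM per kb and above Cd9 (579.6 ± 139.7) in all 4 mice, although the ranges of the 2 genes over mice overlapped. Apoe now came next with 257 ± 67.4, overlapping with Lgals3 (213 ± 44.6), and Clec7a stood at 73.3 ± 36.8, below every mouse's Lgals3. The order of the 7 means in Trem2-/- mice was that of WT mice at D0 and at D7. For comparison, Trem2 was at 14.7 ± 4.45 CPM per kb at WT D7 and Tyrobp at 353 ± 162.

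**Figure D1:**
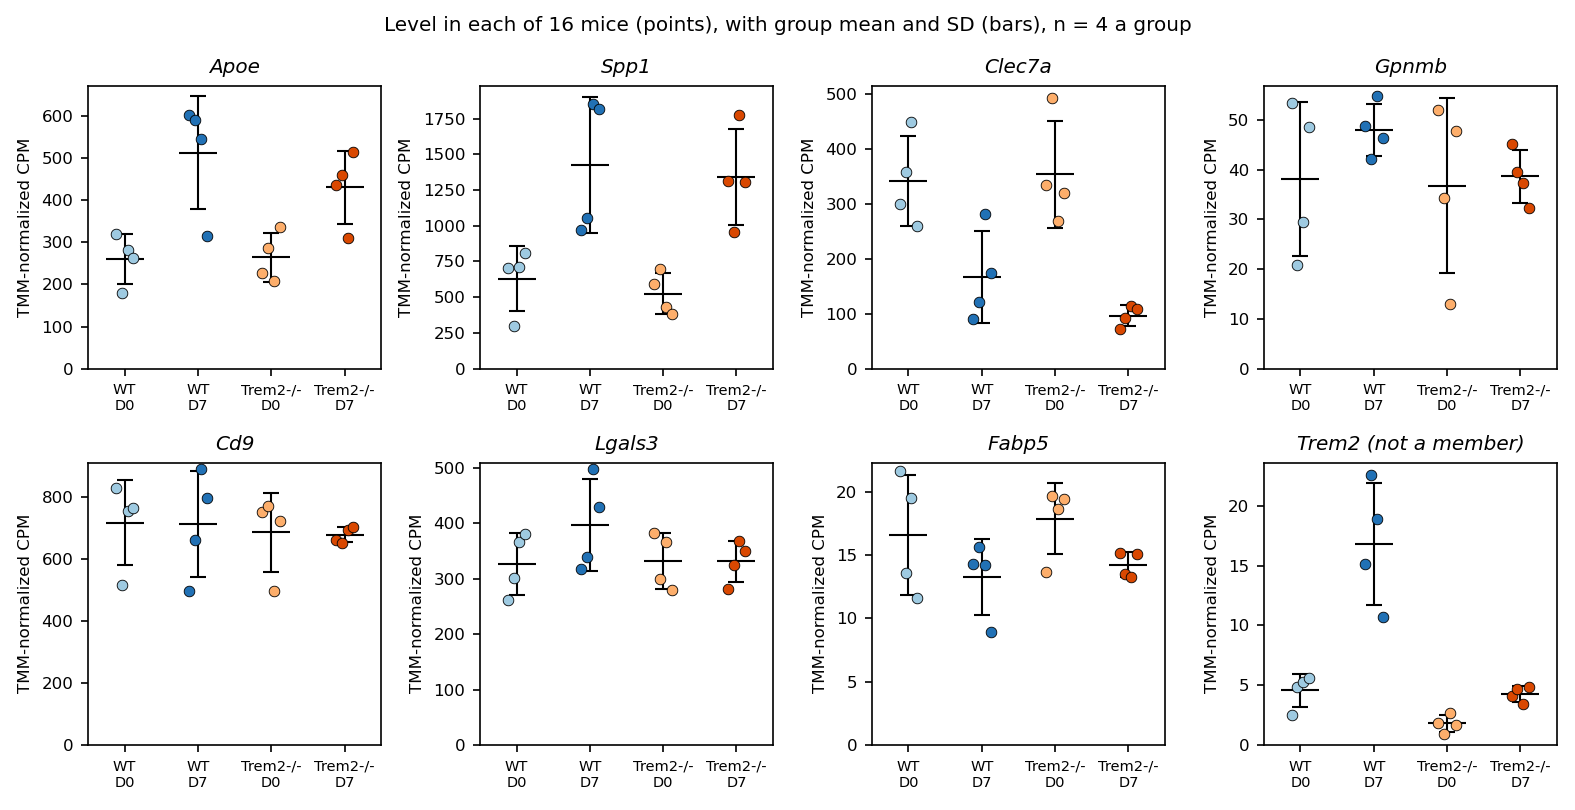
Level of each member and of Trem2 in the 16 mice, in TMM-normalized CPM from 0, by group (WT D0, WT D7, Trem2-/- D0, Trem2-/- D7). Points are mice and bars are the mean and SD of 4 mice. Spp1 is higher in all D7 mice than in any D0 mouse of the same genotype, Clec7a in Trem2-/- mice is lower in all D7 mice, and Cd9, Lgals3, Fabp5 and Gpnmb overlap between groups.

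The first comparison asked what injury did to the members in joints that have Trem2. At WT D7, Spp1 and Apoe were higher and Clec7a lower than at WT D0, and Gpnmb, Cd9, Lgals3 and Fabp5 did not pass the test. A gene was called with an unadjusted limma p under 0.05 and a log2 fold change beyond 0.32 in either direction, on the log2(CPM + 1) scale. By this rule 2 of 7 members were called higher, beside 19.3% of the 13173 genes tested, and 1 of 7 lower, beside 18.2% of genes. With a Benjamini-Hochberg adjusted p under 0.05 as well, the same 3 members remained, beside 15.3% of genes higher and 12% lower. The median log2 fold change of the 7 members was 0.27, against -0.04 over all genes. With so large a share of all genes called, these counts are not a result about the 7 genes as a list, and the values of the single genes follow.

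Spp1 was at 704, 300.4, 709 and 808 CPM in the WT D0 mice and at 973, 1052, 1849 and 1818 CPM in the WT D7 mice. The lowest injured mouse lay above the highest uninjured one. The means were 630.2 ± 225 and 1423 ± 476 CPM (SD, n = 4), a 2.31-fold difference (log2 fold change 1.21, SE 0.32, adjusted p = 0.0138). The exact permutation p of 0.0286 is the smallest that 4 against 4 mice can give.

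Apoe was at 320.3, 179.7, 282 and 263 CPM in the WT D0 mice and at 603, 591, 547 and 315 CPM in the WT D7 mice. The injured mice lay above all uninjured ones in 3 of 4 cases, and the remaining injured mouse fell just under the highest uninjured one. The log2 fold change was 0.96 (SE 0.24, limma adjusted p = 0.00969), or 1.95-fold, with an exact permutation p of 0.0571. Leaving out 1 mouse at a time gave log2 fold changes of 0.79 to 1.18.

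Clec7a moved the other way. It was at 299.7, 358, 449 and 260.0 CPM in the WT D0 mice and at 90.7, 121, 281 and 175 CPM in the WT D7 mice. Again 3 of the 4 injured mice lay beyond all uninjured ones, here below them, and the fourth overlapped. The log2 fold change was -1.13 (SE 0.29, adjusted p = 0.0118), a level 2.19-fold lower, with an exact permutation p of 0.0571. Tyrobp, the adaptor of Trem2, was lower as well (log2 fold change -0.99, adjusted p = 0.0155), while Trem2 itself was higher (1.67, adjusted p = 0.000735).

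The other 4 members lay within the spread of the mice. Gpnmb was at 20.7 to 53.4 CPM at WT D0 and at 42.3 to 54.8 CPM at WT D7, with a log2 fold change of 0.42 and a 95% interval from -0.33 to 1.165. Lgals3 was at 261 to 381 CPM and at 318 to 498 CPM, with a log2 fold change of 0.27 (interval -0.09 to 0.62). These intervals leave room for changes in either direction. Cd9 was at 517 to 829 CPM and at 497 to 891 CPM, with a log2 fold change of -0.02 (interval -0.44 to 0.40). Fabp5 was at 11.7 to 21.7 CPM and at 8.91 to 15.6 CPM, with a log2 fold change of -0.29 (interval -0.71 to 0.13), and was called lower without WT D0 replicate 4, with a log2 fold change of -0.435.

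The next comparison asked the same of Trem2-/- joints. Spp1 and Apoe were again higher and Clec7a lower at D7, and the other 4 members again did not pass. The 2 members called higher stand beside 26.5% of all genes (24.9% with adjustment) and the 1 called lower beside 27.9% (25.9% with adjustment), and the median over the members was 0.00. Spp1 was at 590.4, 695, 430.3 and 379.8 CPM in the D0 mice and at 1314, 959, 1775 and 1308 CPM in the D7 mice. The groups did not overlap, and the log2 fold change was 1.36 (SE 0.32, limma adjusted p = 0.00253, exact permutation p = 0.0286). Apoe was at 226, 287, 208 and 337 CPM and at 436, 460.4, 311 and 516 CPM. As in WT mice, 3 of 4 injured mice lay above all uninjured ones, and the log2 fold change was 0.70 (SE 0.24, limma adjusted p = 0.0211, exact permutation p = 0.0571).

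Clec7a in Trem2-/- mice was at 333, 493, 268 and 319 CPM at D0 and at 72.4, 92.0, 113 and 108 CPM at D7. Every injured mouse was below every uninjured mouse by a factor of more than 2, and the 4 injured values lay close together. The log2 fold change was -1.85 (SE 0.29, limma adjusted p = 0.00013), 3.60-fold lower. Tyrobp was again lower (-1.84, adjusted p = 8.16e-05). The remaining members had log2 fold changes of 0.23 for Gpnmb (interval -0.52 to 0.98), 0.00 for Cd9 (-0.42 to 0.43), 0.00 for Lgals3 (-0.35 to 0.35) and -0.30 for Fabp5 (-0.71 to 0.12). The Gpnmb values of Trem2-/- D0 mice were spread from 12.9 to 52.1 CPM, so a moderate change of this gene would not have been detectable. Without replicate 3 of that group, the mouse at 12.9 CPM, the value turned to -0.195, and without replicate 1 it was 0.448, with no call in either case.

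**Figure D2:**
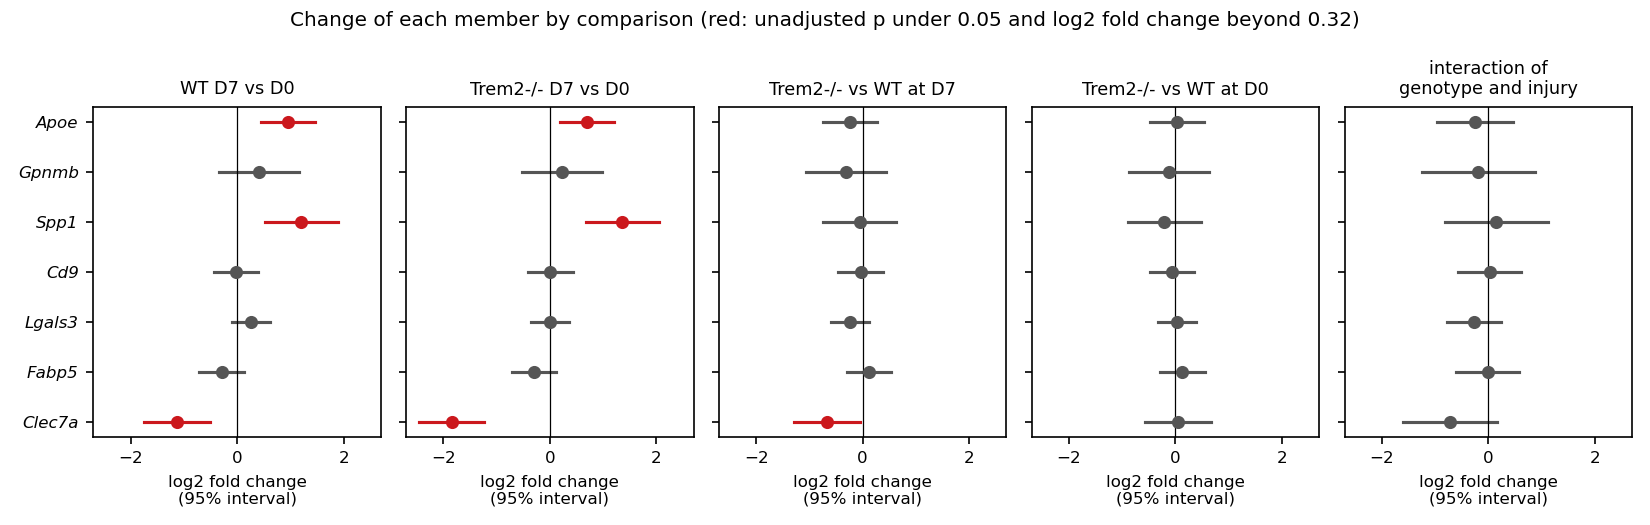
Log2 fold change of each member (points) with its 95% interval (lines) in the 4 comparisons of groups and in the interaction, on the log2(CPM + 1) scale, fitted with limma. Red marks members with an unadjusted p under 0.05 and a log2 fold change beyond 0.32. Spp1, Apoe and Clec7a are red in both injury comparisons, Clec7a is the 1 red member between the genotypes at D7, and no member is red at D0 or in the interaction.

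The comparison of genotypes at D7 asked whether the members depend on Trem2 in the injured joint. Clec7a was called lower in Trem2-/- mice and the other 6 members were not called. This 1 member of 7 called lower stands beside 4.53% of all genes, and 0 members were called higher, beside 1.18% of genes. The means of Clec7a were 96.4 ± 18.4 CPM in Trem2-/- D7 and 167 ± 83.7 CPM in WT D7 (SD, n = 4). The Trem2-/- values, 72.4 to 113 CPM, overlapped with the WT mouse at 90.7 CPM, while the other WT mice stood above them at 121, 175 and 281 CPM. The log2 fold change was -0.68 (SE 0.29, unadjusted limma p = 0.0343, adjusted p = 0.634), with an exact permutation p of 0.143. The call rested on single mice: it was lost without WT D7 replicate 3, the mouse at 281 CPM (log2 fold change -0.383), without WT D7 replicate 4 (-0.611), without Trem2-/- D7 replicate 1 (-0.547) and without Trem2-/- D7 replicate 2 (-0.661). No gene of the whole table had an adjusted p under 0.05 with limma in this comparison, where 958 genes had an unadjusted p under 0.05. Of the 753 genes called, 156 were higher in Trem2-/- mice, and with quantile normalization 246 of 738 were.

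Of the other members at D7, Gpnmb came closest to a separation, with 32.4 to 45.3 CPM in Trem2-/- mice against 42.3 to 54.8 CPM in WT mice. The Trem2-/- mice lay below all WT mice in 3 of 4 cases. Its log2 fold change was -0.31 (95% interval -1.06 to 0.44) with a limma p of 0.390 in the fit of all groups. The exact permutation p was 0.0571. A limma fit of the D7 groups alone gave an unadjusted p of 0.023 for Gpnmb. The log2 fold change was again -0.31, short of the size needed for a call. Log2 levels of Gpnmb had an SD of 0.15 in WT D7 and 0.20 in Trem2-/- D7 mice. At D0 the SD was 0.62 in WT and 0.88 in Trem2-/- mice, and the fit of all groups pools this spread. For Apoe the log2 fold change in the fit of all groups was -0.23 (interval -0.74 to 0.27), and for Lgals3 -0.24 (-0.59 to 0.11). It was -0.06 for Spp1 (-0.74 to 0.63), -0.04 for Cd9 (-0.46 to 0.38) and 0.12 for Fabp5 (-0.30 to 0.54). These intervals exclude a change of 2-fold in either direction for each of the 5 genes but not for Gpnmb. Trem2, by contrast, had a log2 fold change of -1.72 between the same mice, with means of 4.27 CPM in Trem2-/- and 16.8 CPM in WT mice.

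At D0 no member was called between the genotypes, beside 0.782% of all genes called higher and 1.37% called lower in Trem2-/- mice. The log2 fold changes lay between -0.21 for Spp1 and 0.13 for Fabp5. The interaction, which tests whether injury changed a gene differently in the 2 genotypes, was called for no member, beside 2.77% of genes called higher and 5.02% called lower. The widest interaction was that of Clec7a, with -0.72 (95% interval -1.59 to 0.16, limma adjusted p = 0.663), and it was called without WT D7 replicate 1 (-0.966). For Apoe it was -0.26 (interval -0.97 to 0.46) and for Spp1 0.15 (-0.81 to 1.12), so differences in the injury response of up to about 1 on the log2 scale could not be detected for these genes.

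Markers of several cell types moved with injury and genotype, and in bulk libraries fewer cells of a type and less RNA per cell cannot be told apart. At D7 against D0, general leukocyte markers (Ptprc, Coro1a, Cd53, Laptm5 and Lcp1) were called lower for 5 of 5 genes in both genotypes, and neutrophil markers for 6 of 6. Of 10 macrophage markers, 7 were called higher and 1 lower (Fcgr3) in WT mice, and 5 higher (Adgre1, C1qa, C1qb, C1qc and Mrc1) and 2 lower (Cd14 and Fcgr3) in Trem2-/- mice. Chondrocyte markers were called higher for 6 of 6 genes and osteoblast markers for 4 of 5 in both genotypes. At D0, 3 of 6 chondrocyte and 2 of 5 osteoblast markers were called lower without Trem2, beside 1.37% of all genes. Their median log2 fold changes were -1.77 and -0.89, and no adjusted p was under 0.05. Of the other lists at D0, 1 fibroblast marker was called higher, and 1 fibroblast and 1 osteoclast marker lower. At D7 between genotypes, 5 of 5 leukocyte markers and 3 of 10 macrophage markers (Fcgr3, Csf1r and Adgre1) were lower without Trem2 by the same rule, beside 4.53% of all genes. So were 4 of 4 B cell markers (median log2 fold change -0.99), 1 of 4 dendritic cell and 1 of 6 fibroblast markers, with 0 of these lists higher. In the interaction, 5 of 5 leukocyte and 3 of 10 macrophage markers were called lower, beside 5.02% of all genes. There 3 of 5 osteoclast markers were called higher, beside 2.77%, and 1 fibroblast marker in each direction. The summed leukocyte markers were at 1469 to 3195 CPM in WT D7 mice and at 1156 to 1446 CPM in Trem2-/- D7 mice, with no overlap, and none of the 5 was at 0. The summed macrophage markers were at 1085 to 1859 and at 939 to 1120 CPM, with overlap. The mean log2 level of the same 10 genes did not overlap, at 6.21 to 6.62 in WT D7 and 6.01 to 6.17 in Trem2-/- D7 mice. The difference was -0.37 (exact permutation p = 0.0286), and the means of all 10 markers were lower without Trem2.

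The level of Clec7a was also set relative to these lists, a measure that was added after the data were seen. It is the log2 level of the gene minus the mean log2 level of the list in the same mouse. Relative to the leukocyte list, Clec7a was at -1.29 ± 0.24 in WT D7 and at -1.27 ± 0.14 in Trem2-/- D7 mice (SD, n = 4), and the difference of 0.02 had an exact permutation p of 0.886. Relative to the macrophage list it was at 0.82 ± 0.67 in WT D7 and at 0.51 ± 0.30 in Trem2-/- D7 mice. That difference of -0.31 had an exact permutation p of 0.457, so the 2 lists gave unlike differences. Of the other members at D7, Cd9 and Lgals3 relative to the leukocyte list, by 0.66 and 0.46, and Fabp5 relative to the macrophage list, by 0.49, were at higher values in every Trem2-/- than in every WT mouse (exact permutation p = 0.0286 each). In the same comparison the leukocyte list itself was shifted by -0.70 and the macrophage list by -0.37. The genes' own log2 fold changes were -0.04 for Cd9, -0.24 for Lgals3 and 0.12 for Fabp5, and none was called. With injury the level of Clec7a relative to the leukocyte list differed by -0.29 in WT mice (exact permutation p = 0.2) and by -0.04 in Trem2-/- mice (p = 0.914). On this scale the Clec7a values of all 4 groups overlapped. Relative to the 10 macrophage markers, Clec7a at D7 was 2.11 below D0 in WT and 2.44 below D0 in Trem2-/- mice, with no overlap in either genotype (exact permutation p = 0.0286 each).

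Apoe showed the opposite arrangement. Relative to the macrophage markers it was at 2.55 ± 0.42 in WT D0, 2.52 ± 0.32 in WT D7, 2.55 ± 0.28 in Trem2-/- D0 and 2.66 ± 0.26 in Trem2-/- D7 mice (SD, n = 4). The differences with injury were -0.02 in WT and 0.11 in Trem2-/- mice (exact permutation p = 0.971 and 0.629), and all 4 groups overlapped. Relative to the leukocyte list, Apoe was higher at D7 by 1.80 in WT mice and by 2.51 in Trem2-/- mice, with no overlap in either. For Spp1 the difference with injury relative to the macrophage markers was 0.22 in WT mice (exact permutation p = 0.657) and 0.76 in Trem2-/- mice (p = 0.0286). Cd9 and Fabp5, whose own levels did not pass with injury, were at lower values relative to the macrophage markers in every injured than in every uninjured mouse of both genotypes, by 1.00 and 1.27 in WT and by 0.59 and 0.89 in Trem2-/- mice. With injury the macrophage list itself was shifted by 0.98 in WT and 0.60 in Trem2-/- mice, and the leukocyte list by -0.84 and -1.81. Over the 56 comparisons of members with the 2 lists the smallest adjusted p was 0.08, so none passed after adjustment, and with 4 against 4 mice 0.0286 is the lower limit of the raw p.

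**Figure D3:**
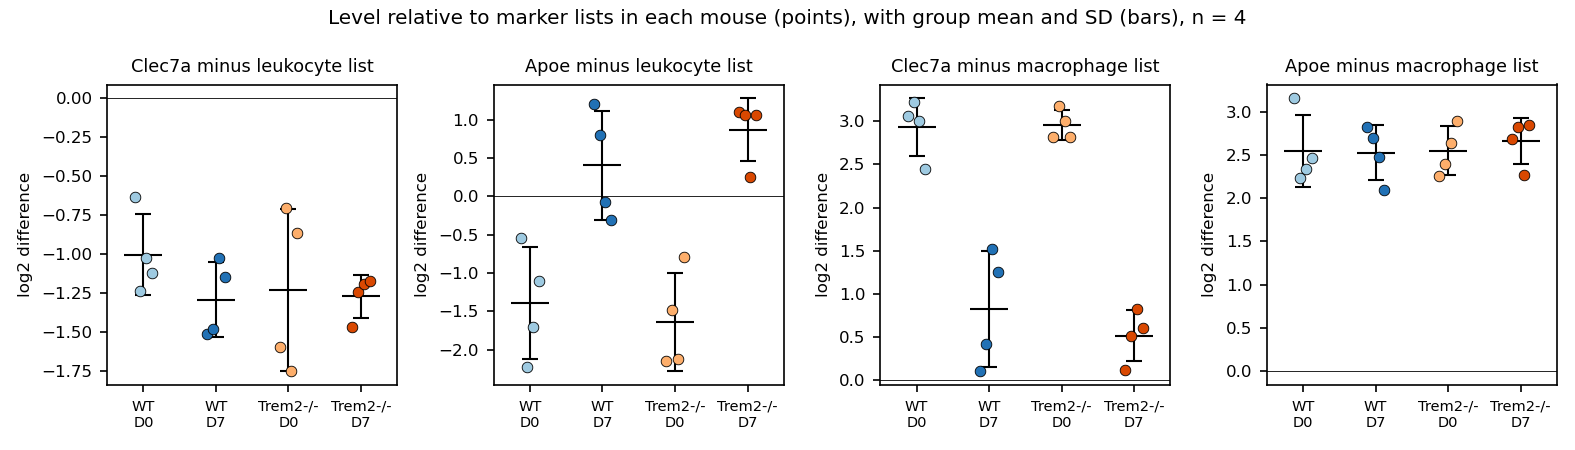
Log2 level of Clec7a and Apoe minus the mean log2 level of 5 leukocyte or 10 macrophage markers in the same mouse, by group. Points are mice and bars are the mean and SD of 4 mice. Clec7a relative to leukocyte markers and Apoe relative to macrophage markers overlap across the 4 groups, and the 2 other combinations separate D7 from D0.

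Within groups, the members did not vary as a single set from mouse to mouse. After centring each gene on its group mean, Pearson's r over the 16 mice ranged from -0.49 (Lgals3 with Fabp5) to 0.78 (Spp1 with Cd9) among the 21 pairs of members. Apoe and Fabp5 went together (r = 0.70), as did Cd9 and Gpnmb (0.67) and Cd9 and Clec7a (0.60), while Apoe and Lgals3 went apart (-0.43). Trem2 had an r between -0.39 (Gpnmb) and 0.34 (Lgals3) with the members, and Tyrobp an r of 0.85 with Clec7a and 0.74 with Lgals3. These correlations are descriptions, since the mice of a pair of genes share a library, its depth and its mix of cells.

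The members were also set beside the mean level of the 14 marker lists, centred in the same way. Clec7a and Lgals3 were most like the leukocyte markers, with r = 0.71 (Spearman's rho 0.69, and 0.50 without the 2 farthest mice) and r = 0.77 (rho 0.73, and 0.65). Spp1 was most like the chondrocyte markers (r = 0.79, rho 0.72, and 0.74 without the 2 farthest mice) and next the osteoblast markers (0.66). Both cell types make osteopontin, and their markers were higher at D7 as Spp1 was, with the summed chondrocyte markers at 667 to 12178 CPM in WT D0 and 27924 to 70996 CPM in WT D7 mice. Gpnmb was most like the fibroblast markers (r = 0.79, rho 0.74, and 0.71), and so was Cd9 (0.57, rho 0.56, and 0.44). Apoe and Fabp5 were most like the endothelial markers (0.64 and 0.68), with the macrophage markers second for Apoe (0.47, falling to 0.28 without the 2 farthest mice). For none of the 7 members was the macrophage list the one most like it. Such correlations in bulk libraries do not show which cells make a gene. In its single-cell data the study found Apoe and Fabp5 enriched in macrophages it named Trem2hi Fcrls+. It found Spp1, Gpnmb and Fabp5 higher in them than in its Lyve1hi Folr2hi macrophages. The part of the listed cell types in the changes with injury was not tested.

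**Figure D4:**
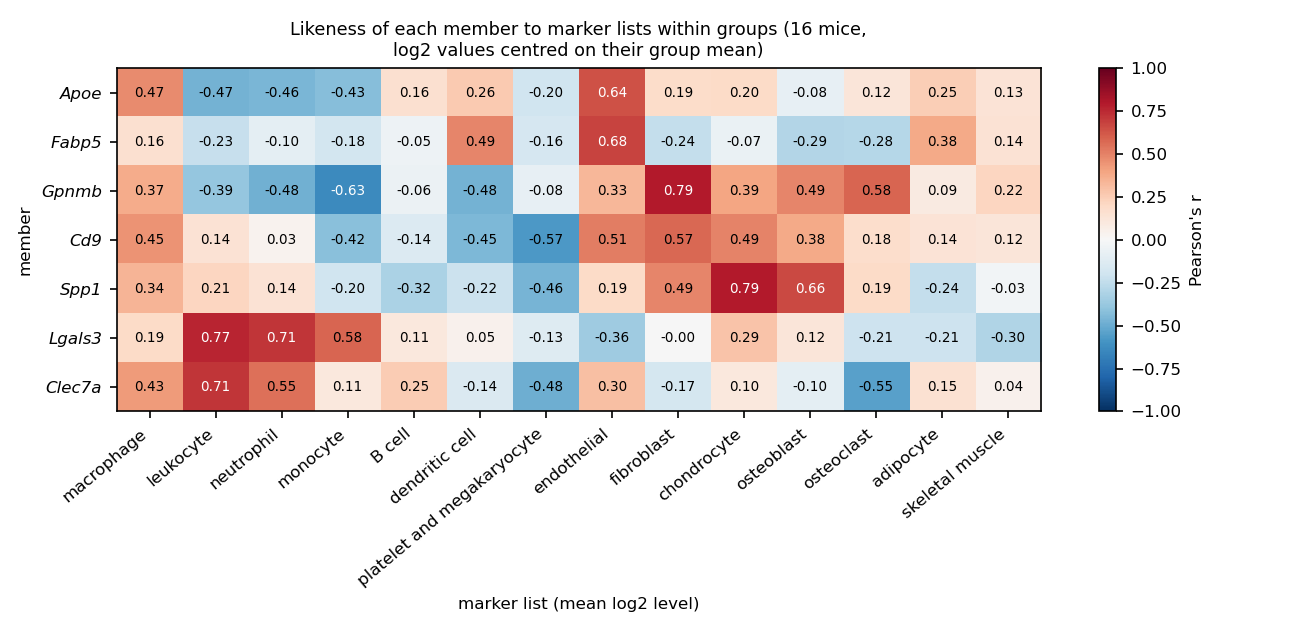
Pearson's r between each member (rows) and the mean log2 level of each of 14 marker lists (columns), over 16 mice after centring on the group means. Red is positive and blue negative on a scale from -1 to 1. Clec7a and Lgals3 are highest with leukocyte markers, Spp1 with chondrocyte markers, Gpnmb with fibroblast markers, and Apoe and Fabp5 with endothelial markers.

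The genes most like each member on the same scale, among 10551 genes at 5 CPM or more on average, were H2-Q10, Pla2g7 and Plek for Clec7a (r = 0.98, 0.98 and 0.96), H2-Q10 being a gene of a multigene family whose reads may be split. They were Serping1 and Sfrp4 for Gpnmb (0.92 and 0.91) and Rab1a, Nt5e and Kera for Spp1 (0.86, 0.86 and 0.85). For Apoe they were Lap3, Csrp1 and Rufy3 (0.85, 0.84 and 0.82), for Fabp5 Nxn, Lipe and Nmi (0.95, 0.91 and 0.90), for Cd9 Lmbrd1, Tgif1 and Rheb (0.95, 0.95 and 0.94) and for Lgals3 Denr, Mpp6 and Utp6 (0.90, 0.89 and 0.88).

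Of the wider lipid-associated program, 35 further genes were listed and 32 were found and tested. In WT mice 16 of the 32 were called higher and 5 lower at D7, with a median log2 fold change of 0.33, beside 19.3% of all genes higher and 18.2% lower. In Trem2-/- mice 15 were higher and 11 lower, with a median of 0.32, beside 26.5% and 27.9% of all genes. These shares of all genes also stand beside the counts with injury in the other lists that follow. The genes that rose most were Fcrls (log2 fold change 2.95 in WT and 3.27 in Trem2-/- mice), Ms4a7 (2.90 and 3.04), which are both genes of macrophages, and the growth factor gene Igf1 (2.33 and 3.57). The study found these genes enriched in its Trem2hi Fcrls+ macrophages, a population it reported to increase after injury. It also named Trem2, Cd63, Ctsb, Ctsd, Ctsl and Timp2 of this list, and the members Apoe, Spp1, Gpnmb and Fabp5, as enriched there. A rise of any of these genes here is therefore not an independent result, and the counts above include those of the list. The genes that fell most were Cst7 (-1.47 and -2.19), which encodes a protease inhibitor, Cd52 (-1.22 and -2.04), a surface protein of many leukocytes, and the chemokine gene Ccl6 (-1.16 and -1.93). Tyrobp and the growth factor gene Csf1 (-0.81 in WT mice), the latter named after its values were seen, were the others of the 5 that fell in WT mice. Clec7a lay with the genes that fell and Spp1 and Apoe with those that rose. Fcrls, for example, was at 2.50 ± 1.62 CPM in WT D0 and at 24.8 ± 6.38 CPM in WT D7 mice (SD, n = 4).

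**Figure D5:**
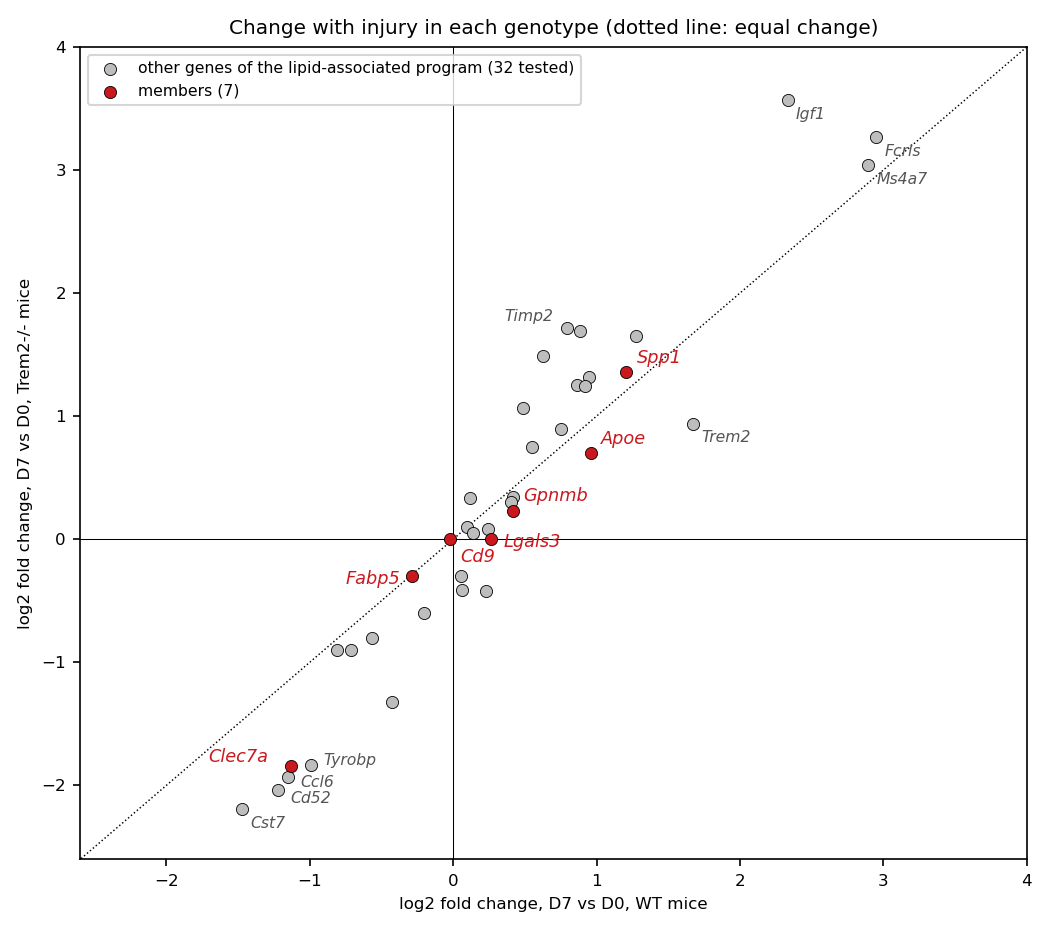
Log2 fold change at D7 against D0 in WT mice (x axis) and in Trem2-/- mice (y axis) for the 7 members (red) and 32 other genes of the lipid-associated program (grey). The dotted line marks equal change. Spp1 and Apoe lie at the upper right, Clec7a lies at the lower left beside Tyrobp, Ccl6, Cd52 and Cst7, and Trem2 lies below the line.

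Between genotypes at D7, 2 of the 32 were called higher in Trem2-/- mice and 4 lower, beside 1.18% and 4.53% of all genes. The median was -0.07. Trem2, the gene inactivated in these mice, is 1 of the 4, so its call follows from the genotype and is not a response of the program. The genes called higher were Lgals1 (0.54), which encodes galectin-1, and the lysosomal tetraspanin gene Cd63 (0.35). Those called lower were Trem2 (-1.72), the lysosomal macrophage marker Cd68 (-0.67), Tyrobp (-0.58) and the cholesterol ester hydrolase gene Nceh1 (-0.44), and adjusted p-values were at least 0.0503. Cd68 was at 63.6 ± 2.82 CPM in Trem2-/- D7 and at 103 ± 18.6 CPM in WT D7 mice (SD, n = 4). The 6 calls became 2 without WT D7 replicate 3 and 3 without Trem2-/- D7 replicate 1. At D0, 0 were called higher and 2 lower, beside 0.782% and 1.37% of all genes. These were Trem2 (-0.98), again the inactivated gene, and the proton pump gene Atp6v0d2 (-0.92). Without WT D0 replicate 2, 10 genes of the list were called. The interaction was called for 4 genes upward, Timp2 (0.93), Atp6v0d2 (0.87), Lgals1 (0.81) and Cd63 (0.58), where Atp6v0d2 had a mean under 5 CPM and was named after its values were seen, and for 3 downward, namely the lipid droplet gene Plin2 (-0.89), Tyrobp (-0.85) and Cd68 (-0.65). Over all genes the interaction was called upward for 2.77% and downward for 5.02%. The 7 calls in the list became 11 when WT D0 replicate 2 was left out and 4 when replicate 1 of that group was left out. They became 3 without either WT D7 replicate 3 or Trem2-/- D7 replicate 1.

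Receptors and partners of the member proteins were called in both directions with injury. Of 19 tested, 8 were higher and 6 lower in each genotype. Among the receptors of the secreted members, the lipoprotein receptor gene Vldlr rose (log2 fold change 1.40 in WT and 1.37 in Trem2-/- mice), as did the osteopontin-binding integrin genes Itgav (1.18 and 1.81) and Itgb5 (1.20 and 1.70), and Lgals3bp, which encodes a binding partner of galectin-3 (0.87 and 1.28). The kinase gene Syk (-0.62 and -1.63) and the adaptor gene Card9 (-0.89 and -2.10), which act after dectin-1, fell. Of the other genes of that route in the list, named after their values were seen, Bcl10 (-0.33) was called in WT and not in Trem2-/- mice (-0.32), and Malt1 (-0.71) in Trem2-/- and not in WT mice (-0.25). Sorl1, a sorting receptor that binds apolipoproteins, fell by 0.84 and 1.91 on the log2 scale, and the leukocyte integrin gene Itga4 fell by 0.74 and 1.41. Between genotypes at D7, 5 of the 19 were called lower in Trem2-/- mice and 0 higher, beside 4.53% and 1.18% of all genes. They were Card9 (-0.82), Syk (-0.75), Sorl1 (-0.69), Itga4 (-0.64) and Malt1 (-0.34). The last of these lies beyond the 4 genes of the naming rule and was named after its values were seen. Adjusted p-values of the first 4 lay between 0.451 and 0.674. The leukocyte markers, whose median log2 fold change in this comparison was -0.64, moved in the same direction, and their part in these calls was not tested. At D0, 0 of the 19 were called. The interaction was called for 0 upward and 4 downward, beside 2.77% and 5.02% of all genes, namely Card9 (-1.21), Sorl1 (-1.07), Syk (-1.005) and Malt1 (-0.46). The shares of all genes between genotypes and in the interaction also stand beside the counts of the 2 lists that follow.

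Apoe is a target of the liver X receptors, nuclear receptors for oxidized sterols, and Gpnmb a target of the MiT/TFE factors, which drive lysosomal genes. Of 9 other genes of liver X receptors and lipid efflux that were tested, 3 were higher and 1 lower at D7 in WT mice, and 3 higher and 3 lower in Trem2-/- mice. The desaturase gene Scd2 rose (1.21 in WT and 0.93 in Trem2-/- mice), as did the cholesterol exporter gene Abca1 (0.74 and 0.68) and Srebf1 (0.42 and 0.42), a regulator of lipid synthesis. Mylip, which encodes a ubiquitin ligase of lipoprotein receptors, fell (-0.52 and -0.78), and in Trem2-/- mice Abcg1 (-0.69) and Nr1h2 (-0.55) did too. Between genotypes at D7 the exporter gene Abcg1 was called lower in Trem2-/- mice (-0.34, limma adjusted p = 0.563), at 33.6 ± 1.79 against 43.3 ± 9.17 CPM, and the other 8 were not called. None of the 9 was called at D0, and Abcg1 was called in the interaction (-0.48).

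Of 8 MiT/TFE factors and target enzymes, 3 were higher and 1 lower at D7 in WT mice, and 4 higher and 3 lower in Trem2-/- mice. With 19.3% and 18.2% of all genes called in WT mice, and 26.5% and 27.9% without Trem2, such counts of 8 genes, like those of the 9 before, are not a result about the lists. Mitf rose in both (0.69 and 0.57), as did the lysosomal genes Ctsa (0.49 and 0.44) and Lamp1 (0.36 and 0.42), and Tfeb fell (-0.34 and -0.78). In Trem2-/- mice the lysosomal channel gene Mcoln1 rose as well (0.33), and the factors Tfec (-1.08) and Tfe3 (-0.36) fell. None of the 8 was called between the genotypes at D7 or at D0, and Tfeb was called in the interaction (-0.44). Gpnmb did not pass with injury in either genotype.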

How the data were processed

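RNA-seq of knee joint cells from 16 mice was analysed, grouped by the genotype and injury state in the labels. Per the labels and the study's methods, the authors used STAR for alignment to mm10 (GRCm38), featureCounts for counting and edgeR for normalization, and deposited TMM-normalized CPM, treated here as signal values. Versions are not given in the sources used here. Per the study's methods base calls were converted with bcl2fastq. The value of 1 read was recovered in each library, and 100% of values were whole multiples of it within 0.1 reads. Fcgr1, listed 2 times, was counted once. The deposited values were compared on the log2(CPM + 1) scale by limma 3.58.1 under R 4.3.3 (a linear model of the 4 groups, moderated with a trend), after genes were required to reach 1 CPM in 4 or more libraries. Calls needed an unadjusted p under 0.05 and a log2 fold change beyond 0.32, as in the study's methods. Two-sided exact permutation tests over 70 assignments were used for single values. The labels number 4 samples a group, and p-values measure the spread between these samples.

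The members and lists were chosen with earlier results of these data known. Named beyond the members, Trem2 and Tyrobp are at most 4 called genes per direction, list and comparison, with the largest fold change and a mean of at least 5 CPM, and the 3 genes most like each member, of which 1 is not reported here. Listed genes not analysed here were Itgax, Lilrb4a, Lyz2, Lrp1, Apoc1, Apoc2, Apoc4, Ly6c2, Oscar, Bglap and Lep. Marker lists not described further, with calls higher and lower at D7, were monocyte (0 and 2 of 3 in WT, 0 and 3 in Trem2-/-), B cell (0 and 4 of 4 in each), dendritic cell (0 and 1 of 4, 0 and 2), platelet and megakaryocyte (0 and 2 of 4, 1 and 1), osteoclast (2 and 0 of 5, 4 and 1), fibroblast (3 and 1 of 6, 4 and 1), endothelial (0 and 0 of 4 in each), adipocyte (0 and 1 of 1 tested, 0 and 0) and skeletal muscle (0 and 1 of 4, 0 and 4). Alternatives were pseudocounts of 0.1 and 5, no filter, quantile normalization, only the groups compared, voom and edgeR 4.0.16 run with the recovered reads, a threshold of 1.5-fold, an adjusted p under 0.05, the replicate number as a block and each mouse left out. The tests were checked on simulated data.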

Additional observations from a re-analysis of the deposited data

Results flagged for a closer look

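Cd9 in Trem2-/- D0 mice had 1 mouse far from the others, replicate 3 at 496 CPM, while the others were at 753, 769 and 724 CPM. Its gap to the nearest mouse was 0.833 of the range of the group, above Dixon's 95% critical value for 4 samples. The 28 groups of members were tested in this way, and chance alone marks about 1 in 20 groups.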

How the results depend on the processing

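Spp1, Apoe and Clec7a were called with injury in each genotype under every alternative run, and the count of members called was 3 in each run but 1, without WT D0 replicate 4, where Fabp5 made it 4 in WT mice. The 1 member called between genotypes at D7, Clec7a, became 0 with an adjusted p under 0.05, and the count ranged from 0 to 1 when each mouse was left out. The interaction count also ranged from 0 to 1 when each mouse was left out. Of 609 alternative values of single members, 546 kept their direction and side of the threshold, 57 turned sign while not called, 2 passed newly and 4 no longer passed, and no called value reversed. The replicate numbers of the labels were not used to pair the mice. Same-numbered mice of different groups had correlations of their deviations from -0.51 to 0.41, and 11 of 24 were over 0.1. Differently numbered mice were not compared, so these values cannot tell whether the numbers pair the mice. With a replicate block Clec7a at D7 kept its call (log2 fold change -0.676), and no count of members called changed. In the fit of the D7 groups alone 1366 genes were called between genotypes, against 753 in the fit of all groups, and at D0 149 were called against 283. With a pseudocount of 5 that D0 count was 164 and with edgeR on the recovered reads 466. With 4 mice a group, differences smaller than the 95% intervals could not be detected, and exact tests could not go below 0.0286.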
